A study of Rattus norvegicus with 18 samples.

Results

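The nuclear genes of the mitochondrial respiratory chain and of ATP synthase were followed in rat ovarian follicles around ovulation, with and without 2 drugs that block it. A gene was taken when the array's platform annotation gave its probe set a single symbol that begins with Nduf and one of the letters a, b, c, s or v, with Uqcr, with Cox and a digit from 4 to 8, or with Atp5, or is one of Sdha to Sdhd. This gave 86 of the 14217 genes with 1 symbol, each read on its probe set of highest mean. Of the 86, 76 encode subunits: 34 of complex I, 4 of complex II, 7 of complex III, 16 of complex IV and 15 of complex V. The other 10 encode no subunit of the 5 complexes. These are 6 complex I assembly factors, the complex V inhibitor Atp5if1, the supercomplex factor Cox7a2l, Ndufa4l2, which is a paralog of Ndufa4, and the pseudogene Cox6c-ps1. A further 7 probe sets that match these symbols together with others were left out.

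RNA came from follicles of Crl:CD(SD) rats, cut by laser microdissection from frozen ovary sections 8 micrometres thick, with 15 follicles for each phase. There were 6 groups of 3 samples. Control PeF were follicles before ovulation from non-treated rats at 22:00 of proestrus, and control PoF were ruptured follicles from non-treated rats at 10:00 of estrus. IM PeF and IM UF were the follicles at 22:00 and the unruptured follicles at 10:00 from rats given 1 oral dose of indomethacin (IM), 4 mg/kg at 16:00 of proestrus. Indomethacin inhibits the cyclooxygenases that make prostaglandins. RU PeF and RU UF were the matching groups from rats given 1 oral dose of RU486 (RU), 100 mg/kg at 10:00 of proestrus. RU486 blocks the progesterone and glucocorticoid receptors. Controls and treated follicles of 10:00 differ in rupture as well as in drug, and these cannot be told apart. The labels give 3 rats per group and do not tie a sample to a rat, so p-values measure the spread between samples.

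Complexes I and II pass electrons from NADH and succinate to ubiquinone, complex III passes them on to cytochrome c, and complex IV hands them to oxygen. Complexes I, III and IV pump protons across the inner mitochondrial membrane, and complex V, ATP synthase, uses their return to make ATP. Most subunits are encoded in the nucleus and all those described here are. In steroid-making cells of the follicle the same membrane also carries the enzyme that starts steroid synthesis from cholesterol, and cells turn to making progesterone as the follicle becomes a corpus luteum.

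Promoters are shown for 4 members that differ in their values. Ndufs1 and Ndufa6 of complex I were higher at 10:00 in every time course. Sdhb of complex II was lower in RU UF than in control PoF. Cox7c of complex IV was lower at 10:00 in every time course on the normalized signals. These 4 were picked after those values and the motif matches were seen. Each is the stretch of 250 bases before the gene's start in RefSeq's GRCr8 assembly, given on the gene's own strand, with motif matches in capitals.
Ndufs1, chr9:72073606-72073855, minus strand: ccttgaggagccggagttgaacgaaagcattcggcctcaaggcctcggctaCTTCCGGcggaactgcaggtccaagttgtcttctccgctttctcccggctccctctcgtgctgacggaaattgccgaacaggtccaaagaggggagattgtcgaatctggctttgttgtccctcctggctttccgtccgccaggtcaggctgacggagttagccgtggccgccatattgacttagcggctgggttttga
Ndufa6, chr7:115750318-115750567, minus strand: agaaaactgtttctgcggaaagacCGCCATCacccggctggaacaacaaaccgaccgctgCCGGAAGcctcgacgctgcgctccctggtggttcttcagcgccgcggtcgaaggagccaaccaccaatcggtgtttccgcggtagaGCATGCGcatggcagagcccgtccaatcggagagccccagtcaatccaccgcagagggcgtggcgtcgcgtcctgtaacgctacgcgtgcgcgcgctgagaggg
Sdhb, chr5:158547684-158547933, plus strand: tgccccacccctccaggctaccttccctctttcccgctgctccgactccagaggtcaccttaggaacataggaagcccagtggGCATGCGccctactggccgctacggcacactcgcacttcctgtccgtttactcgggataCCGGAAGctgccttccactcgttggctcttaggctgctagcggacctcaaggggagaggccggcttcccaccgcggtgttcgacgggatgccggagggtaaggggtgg
Cox7c, chr2:18579171-18579420, minus strand: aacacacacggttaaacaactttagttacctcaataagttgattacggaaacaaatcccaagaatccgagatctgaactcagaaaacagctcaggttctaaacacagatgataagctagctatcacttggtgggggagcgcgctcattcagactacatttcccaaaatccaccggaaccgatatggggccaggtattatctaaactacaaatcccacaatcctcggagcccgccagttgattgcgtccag
Both strands were searched for 4 motifs: the core of the nuclear respiratory factor NRF1 site (GCATGCG), an ETS site as bound by GABP (CCGGAAG), the core of the hypoxia response element (ACGTG) and a YY1 site (GATGGCG). No 2 of these share letters by overlap in the stretches printed. Ndufs1 held an ETS match on the reverse strand at position -199, counting from the start. Ndufa6 held a YY1 match on the reverse strand at -226, an ETS match at -190 and an NRF1 match at -104. Sdhb held an NRF1 match at -167 and an ETS match at -108, and Cox7c held none of the 4.

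A promoter of 300 bases, with 50 after the start, was listed for 78 of the 86 members. The ETS letters were in 22 of these (28.2%), against 9.22% of all 27457 promoters listed. The YY1 letters were in 14 (17.9%), against 4.26% of all promoters, and the NRF1 letters in 11 (14.1%), against 3.54%. The hypoxia response letters were in 20 members (25.6%), near the 19.7% of all promoters. A match describes these letters only and was not compared with the expression values.

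Values are log2 of the quantile-normalized probe set signal plus a pseudocount of 2.79, and folds are taken from differences on this scale, which understates the change of dim genes. Median signals as deposited ran from 4.40 to 27.4 over the 18 arrays, the 3 dimmest being control PeF 3, IM PeF 2 and IM UF 2, and between 45.7% and 75.3% of probe sets were above the background control probe sets. The gap in log2 signal from the 5' to the 3' Gapdh probe set, a sign of RNA quality, was 3.72 ± 0.665 (SD, n = 3) in control PeF and 2.22 ± 0.133 in control PoF, and lay between 2.78 and 3.07 as group means in the 4 treated groups. The same gap for beta-actin was 5.21 ± 0.874 (SD, n = 3) in control PeF and 5.05 ± 0.130 in control PoF, and between 4.79 and 5.22 in the treated groups. Granulosa and theca marker genes were above background in every group, except the theca enzyme Cyp17a1 in IM UF. Of the 9 granulosa markers 2, 3 and 4 rose and 4, 2 and 4 fell in the control, indomethacin and RU486 time courses, with median log2 differences of -0.85, -0.43 and -0.99, and of the 5 theca markers 2 rose in each and 2, 2 and 1 fell. Their part in the values of the members was not tested. The aromatase gene Cyp19a1 fell by 4.54, 4.39 and 1.73 and the granulosa transcription factor gene Foxl2 rose by 2.02, 1.90 and 2.23. Of the 86 members 83 passed a filter on dim probe sets and were tested with limma over all 18155 probe sets that passed, and a gene is said to have risen or fallen where its Benjamini-Hochberg adjusted p was under 0.05. The 3 that did not pass, Cox6a2, Cox7b2 and Cox8b, are tissue-specific forms of complex IV subunits.

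Between 22:00 and 10:00 the members shifted upwards in all 3 settings. In untreated follicles 53 of 83 rose from control PeF to control PoF and 2 fell, where 21.0% of all tested probe sets rose and 18.5% fell. With indomethacin 54 rose from IM PeF to IM UF and 2 fell, against 16.3% and 17.0% of all probe sets. With RU486 43 rose from RU PeF to RU UF and 3 fell, against 19.0% and 19.9%. The median log2 difference of the members was 0.56 in the controls, 0.53 with indomethacin and 0.37 with RU486, and that of all tested probe sets was 0.04, -0.03 and -0.02. In sections, fewer cells of a type and less RNA per cell cannot be told apart. The Gapdh gap and the signal differences between arrays given above move with the control time course, while the mean beta-actin gap differed little. Without the 3 dimmest arrays 54, 57 and 52 members rose, and without Cox4i2, which has only a bound in 3 of the groups, 52 of 82 rose in the controls. For the fit without the dimmest arrays the share of all probe sets that rose is not given.

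The counts of calls depended on how arrays were put on 1 scale. The upward direction of the members' median in the time courses did not, though single members could turn. With the deposited signals left unscaled, all probe sets shifted up by a median of 1.28 in the control time course, the members by 1.92, and 60 members rose and none fell. In the drug time courses no member was called on that scale, although their median differences of 0.59 with indomethacin and 0.20 with RU486 stood above the -0.05 and -0.14 of all probe sets. With each array scaled to 1 median, 58, 40 and 13 members rose in the control, indomethacin and RU486 time courses, and 0, 0 and 3 fell. Their medians were then 0.78, 0.64 and 0.24, and those of all probe sets 0.26, 0.01 and -0.09. For these other scalings the shares of all probe sets called are not given, so the counts alone do not set the members apart. A further measure takes each probe set relative to its own mean over the 18 arrays, and then the median of the 73 tested subunits minus the median of all tested probe sets on the same array. On the normalized signals it lay between -0.37 and -0.07 on the 9 arrays of 22:00 and between 0.13 and 0.35 on the 9 arrays of 10:00. As deposited it lay between -0.72 and -0.10 at 22:00 and between 0.13 and 0.41 at 10:00. No array of the later time overlapped an array of the earlier one on either scale.

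**Figure D1:**
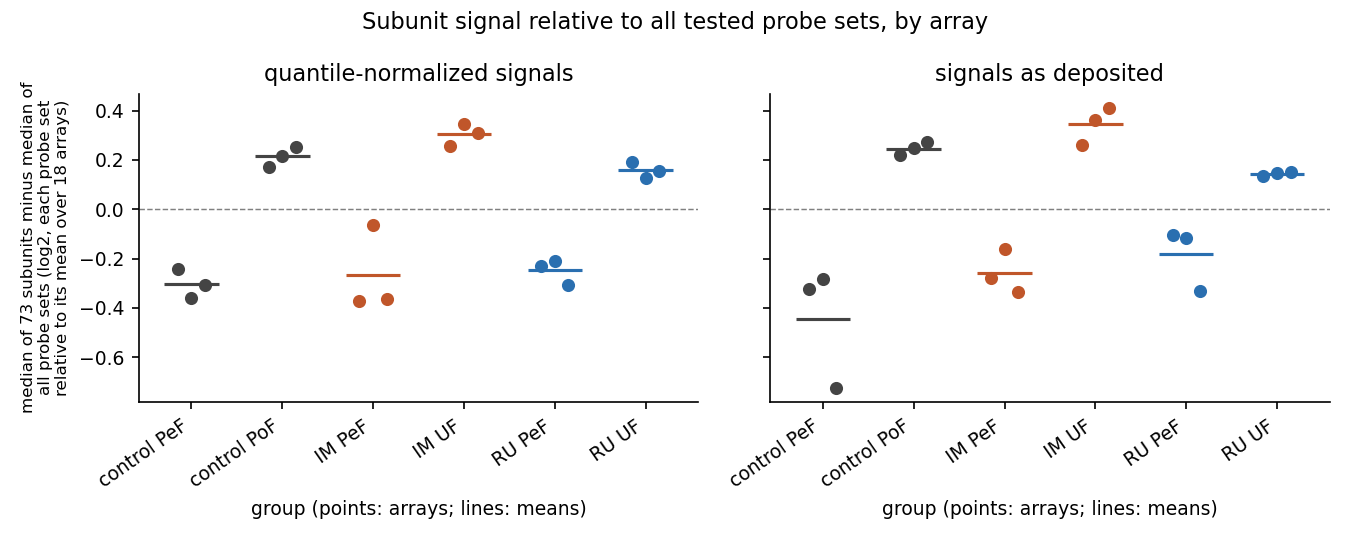
Each point is 1 array, and its height is the median over the 73 tested subunits minus that over all tested probe sets on that array, of log2 signals taken relative to each probe set's mean over the 18 arrays. Lines are group means, on normalized signals at left and on deposited signals at right, and all 9 arrays of 22:00 lie below 0 and all 9 of 10:00 above it on both.

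Single genes showed the same separation. For 33 of the 83 tested members, 39.8%, all 9 arrays of 10:00 were above all 9 of 22:00, where 9.39% of all probe sets were. For no member were all 9 below, as they were for 7.93% of all probe sets. In 35 members, 42.2%, the rise passed the test in all 3 time courses, where 10.1% of probe sets did so. Cox7c was the only member to fall in all 3, against 9.26% of probe sets. That count is of the normalized signals, and on neither of the other scalings did a member fall in the controls. The 35 comprised 24 complex I subunits, 4 of complex V, 3 of complex III, 2 of complex IV, Sdhb and Cox7a2l.

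Complex I, the entry point for electrons from NADH, had the largest median difference of the 5 complexes in each time course, while the share of subunits that rose in the controls was larger in complex II (100% of 4) than in complex I (79.4%). Of its 34 subunits 27 rose in the controls, 27 with indomethacin and 25 with RU486, and none fell, with median log2 differences of 0.75, 0.71 and 0.61. The 6 measured core subunits, which carry the flavin and iron-sulfur centres or line the path to ubiquinone, were Ndufs1, Ndufs3, Ndufs7, Ndufs8, Ndufv1 and Ndufv2. All 6 rose in each time course, with medians of 1.12, 0.85 and 0.73. Of the 28 accessory subunits 21, 21 and 19 rose.

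Ndufs1, the largest iron-sulfur subunit, read 8.25, 8.27 and 7.52 in control PeF and 9.07, 9.07 and 9.28 in control PoF, 7.93, 8.34 and 8.09 in IM PeF against 9.22, 9.23 and 9.68 in IM UF, and 8.08, 8.27 and 7.98 in RU PeF against 8.82, 8.71 and 8.71 in RU UF. Every array of 10:00 was above every array of 22:00, and the RU UF arrays were the lowest of the later ones. The log2 difference was 1.13 ± 0.18 (SE) in the controls, 1.26 ± 0.18 with indomethacin and 0.64 ± 0.18 with RU486, with limma adjusted p of 0.000126, 5.06e-05 and 0.0106. Ndufv1, which binds NADH and the flavin, showed the smallest rises of the core. It read 8.40, 8.57 and 8.32 in control PeF against 8.96, 9.11 and 9.15 in control PoF, 8.85, 8.85 and 8.69 against 9.37, 8.98 and 9.20 with indomethacin and 8.91, 8.82 and 8.86 against 9.11, 9.20 and 9.24 with RU486. The groups did not overlap in any of the 3 pairs, and the differences were 0.64, 0.39 and 0.33 with limma adjusted p of 0.000395, 0.018 and 0.0386. Its partner in the NADH module, Ndufv2, rose by 1.34, 0.88 and 0.74, and Ndufs8, an iron-sulfur subunit near the ubiquinone site, by 1.12, 0.87 and 1.28.

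The accessory subunits with the largest rises were Ndufv3 and Ndufb4. Ndufv3, a small protein attached to the NADH module, read 7.03, 7.40 and 7.27 in control PeF and 8.71, 9.24 and 9.14 in control PoF, 7.11, 7.91 and 7.43 and 9.17, 9.26 and 9.21 in the indomethacin groups and 7.70, 7.32 and 7.46 and 8.68, 9.12 and 8.52 in the RU486 groups. This is a 3.48-fold, 3.32-fold and 2.43-fold rise, with no overlap between times, and its group means had the widest range in complex I, 1.98. A second, dim probe set of Ndufv3 gave 0.43, -0.35 and 0.24 and did not pass the test, so the probe sets of this gene disagree. Ndufb4, of the membrane arm, read 9.86, 9.71 and 9.64 and 11.03, 10.97 and 11.22 in the control groups, 9.42, 10.15 and 9.60 and 11.31, 11.20 and 11.13 with indomethacin and 10.03, 9.88 and 9.84 and 11.69, 11.35 and 11.51 with RU486. It rose 2.53-fold, 2.81-fold and 3.03-fold, and its later arrays were all above its earlier ones. Ndufa6, whose promoter is printed above, rose by 0.90, 1.07 and 1.14 on the log2 scale, and the membrane-arm subunit Ndufc1 by 1.12, 1.11 and 1.06. The 6 complex I subunits that passed in no time course were Ndufa1, Ndufa2, Ndufa5, Ndufa7, Ndufb8 and Ndufb9. A second, dimmer probe set of Ndufa7 gave 0.41, 0.40 and 0.46 and passed with RU486 (limma adjusted p = 0.0314), where the first stood at 0.25.

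Complex II, succinate dehydrogenase, is the enzyme shared with the citrate cycle. All 4 of its subunits rose in the controls, 3 with indomethacin and 1 with RU486, with median log2 differences of 0.51, 0.35 and 0.20. The flavoprotein Sdha, which oxidises succinate, read 9.39, 9.40 and 9.24 in control PeF and 9.87, 9.77 and 9.87 in control PoF, 9.50, 9.82 and 9.84 in IM PeF against 9.77, 9.62 and 9.57 in IM UF, and 9.27, 9.46 and 9.45 in RU PeF against 9.67, 9.52 and 9.66 in RU UF. The control and RU486 groups did not overlap between times and the indomethacin groups did. Its differences were 0.49 (limma adjusted p = 0.00225), -0.07 (limma adjusted p = 0.686) and 0.22 (limma adjusted p = 0.131).

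The iron-sulfur subunit Sdhb had the widest range of group means in complex II, 1.38. It read 9.10, 9.04 and 8.77 in control PeF and 9.93, 10.56 and 10.55 in control PoF, 9.27, 9.51 and 9.26 in IM PeF against 10.26, 10.11 and 10.43 in IM UF, and 9.07, 9.08 and 8.90 in RU PeF against 9.31, 9.46 and 9.48 in RU UF. It was higher at 10:00 in all 3 settings without overlap, but the 3 RU UF arrays stayed below all 3 arrays of control PoF and of IM UF. The rise was 1.38 ± 0.15 (SE) in the controls, 0.92 ± 0.15 with indomethacin and 0.40 ± 0.15 with RU486, with limma adjusted p of 2.79e-06, 0.000189 and 0.0486. The membrane anchors Sdhc and Sdhd differed by 0.53 and 0.43 in the controls and 0.37 and 0.33 with indomethacin, all called, and by 0.19 and 0.10 with RU486, neither called. A second probe set of Sdhd gave -0.01, -0.18 and -0.24, none called, and so disagrees with the first.

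In complex III, cytochrome c reductase, 3 of 7 subunits rose in the controls, 4 with indomethacin and 3 with RU486, and none fell. The core protein Uqcrc2 read 10.00, 10.22 and 9.60 and 10.78, 10.73 and 10.78 in the control groups, 10.05, 10.28 and 10.06 and 10.70, 10.53 and 10.77 with indomethacin and 9.89, 10.05 and 9.93 and 10.40, 10.44 and 10.44 with RU486. It rose without overlap by 0.83, 0.53 and 0.47 on the log2 scale. A second, dim probe set gave 0.69, 0.25 and -0.10, none called. Its companion Uqcrc1 stood at -0.09, -0.03 and 0.06, and the Rieske iron-sulfur protein Uqcrfs1 at 0.29, -0.30 and 0.31, and neither passed the test in any time course. The small subunits Uqcr11 and Uqcr10 rose in all 3, Uqcr11 by 0.77, 1.18 and 0.99, with the widest range of group means in the complex (1.18), and Uqcr10 by 0.42, 0.50 and 0.39. Uqcrq, which neighbours cytochrome b, rose with indomethacin alone (0.49, against 0.00 in the controls and -0.07 with RU486), and the test of that difference from the controls did not pass (limma adjusted p = 0.464).

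Complex IV, cytochrome c oxidase, was mixed. Of 13 tested subunits, counting Ndufa4, which belongs to this complex despite its name, 7 rose and 1 fell in the controls, 7 rose and 2 fell with indomethacin, and 4 rose and 2 fell with RU486. Cox6b1, on the side that faces cytochrome c, read 10.56, 10.44 and 10.40 and 11.34, 11.25 and 11.25 in the control groups, 10.44, 10.64 and 10.45 and 11.17, 11.17 and 11.15 with indomethacin and 10.63, 10.69 and 10.70 and 11.17, 11.18 and 11.25 with RU486. It rose without overlap by 0.81, 0.65 and 0.53, and the small membrane subunit Cox8a rose by 0.56, 0.63 and 0.50. The zinc-binding subunit Cox5b rose by 0.56 in the controls and 0.64 with indomethacin and stood at 0.26 with RU486 (limma adjusted p = 0.0568). Its neighbour Cox5a stood at 0.00 in the controls and rose by 0.45 with indomethacin and 0.72 with RU486. The common form of subunit 4, Cox4i1, rose by 0.28 in the controls and stood at -0.04 and -0.22 in the drug time courses.

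Cox7c and Ndufa4 went the other way. Cox7c, a small membrane subunit, read 11.43, 11.74 and 11.95 in control PeF and 11.21, 11.45 and 11.13 in control PoF, 11.95, 11.78 and 11.64 in IM PeF against 11.16, 11.46 and 11.32 in IM UF, and 11.92, 11.98 and 11.88 in RU PeF against 11.36, 11.16 and 11.24 in RU UF. The drug groups did not overlap between times, and 1 control PeF array lay within the range of control PoF. The differences were -0.45, -0.48 and -0.68 with limma adjusted p of 0.00969, 0.00738 and 0.00039. Ndufa4 read 11.62, 11.57 and 11.84 and 11.44, 11.40 and 11.51 in the control groups, 11.89, 11.92 and 11.80 and 11.52, 11.80 and 11.53 with indomethacin and 11.68, 11.70 and 11.64 and 11.30, 11.18 and 11.22 with RU486. It fell by 0.25 with indomethacin and by 0.44 with RU486 on the log2 scale, and stood at -0.23 in the controls (limma adjusted p = 0.0594). Its later arrays were lower without overlap in the controls and with RU486, while the indomethacin groups overlapped. On the deposited signals no member fell in any time course. With each array scaled to 1 median none fell in the controls or with indomethacin, and 3 fell with RU486.

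Of the tissue-specific forms of complex IV subunits, Cox4i2 was the one that passed the test, in the controls. Cox4i2 replaces Cox4i1 in some cells and is best known from lung and from oxygen-sensing cells. It read 3.41, 2.11 and 2.07 in control PeF and 5.84, 5.82 and 5.45 in control PoF, 3.32, 2.19 and 2.28 in IM PeF against 4.41, 3.47 and 3.48 in IM UF, and 2.29, 2.25 and 2.34 in RU PeF against 2.07, 2.39 and 3.17 in RU UF. The deposited signals in control PoF were 80.6, 75.9 and 65.3, above background on all 3 arrays, while it was above background on 2 arrays of IM UF, on 1 of IM PeF and on none of the 9 arrays of control PeF, RU PeF and RU UF. It passed the filter through the groups where it is high. Against the background level it was at least 3.51-fold higher in control PoF than in control PeF and at least 5.27-fold higher than in RU UF. These bounds were not tested. The calls in the 2 comparisons (limma adjusted p = 6.86e-05 and 0.000451) come from the fit of the values as read, those below background included. Since it had to be high in some group to be tested, these calls support nothing about the members as a whole. IM UF stood 1.19 above IM PeF on the log2 scale without a call (limma adjusted p = 0.07), and RU UF and RU PeF were both at background.

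Most markers of smooth muscle and pericytes rose over time in all 3 time courses, also with RU486, where Cox4i2 was at background. Of the 8 tested, 5 rose and 1 fell in the controls, 6 rose with indomethacin, and 5 rose and 1 fell with RU486. Their summed deposited signal ran from 112 to 815 in control PeF, 1506 to 2067 in control PoF, 289 to 611 in IM PeF, 507 to 2007 in IM UF, 278 to 321 in RU PeF and 595 to 808 in RU UF, and none was at background in any group. Their part in the Cox4i2 values was not tested. The other tissue-specific forms were dim. Cox6a2, of heart and skeletal muscle, was above background on none of the 18 arrays, Cox7b2, of testis, on 2 and Cox8b, of muscle, on 3, and the striated muscle myosin Myh7 was at background in every group. Of the 5 striated muscle markers on the array 2, Acta1 and Tnnt2, were tested. Acta1 rose by 1.57 in the controls and 2.59 with indomethacin and stood at -1.12 with RU486, and Tnnt2 rose by 1.21 with indomethacin and stood at 0.49 and 0.58 in the controls and with RU486. Both were lower in RU UF than in IM UF. The summed deposited signal of the 5 ran from 21.5 to 84.8 in control PeF, 136 to 221 in control PoF, 36.8 to 75.1 in IM PeF, 67.1 to 234 in IM UF, 39.9 to 59.1 in RU PeF and 48.1 to 54.9 in RU UF, and the part of these markers in the members' values was not tested. Cox7a1, another muscle form, stood at 0.69, 0.62 and 0.73 and Cox6b2, known from testis, at -0.44, 0.31 and -0.46, with no call. Ndufa4l2, a paralog of Ndufa4 known to respond to low oxygen, was above background on 13 of the 18 arrays and stood at 0.43, 0.49 and 0.47, also without a call.

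In complex V, 8 of 15 subunits rose and 1 fell in the controls, 11 rose with indomethacin, and 9 rose and 1 fell with RU486. In its catalytic head the gamma subunit Atp5f1c, the rotating shaft, read 9.84, 9.48 and 9.24 in control PeF and 10.84, 11.09 and 11.13 in control PoF, 9.51, 10.21 and 9.78 in IM PeF against 11.12, 10.92 and 11.15 in IM UF, and 9.74, 9.61 and 9.77 in RU PeF against 10.86, 10.94 and 10.94 in RU UF. It rose 2.82-fold, 2.35-fold and 2.31-fold without overlap, with the widest range of group means in the complex (1.54). The alpha subunit Atp5f1a rose by 0.77 in the controls and 0.37 with RU486 and stood at 0.36 with indomethacin (limma adjusted p = 0.0506). The catalytic beta subunit Atp5f1b read 11.52, 11.34 and 10.81 and 11.68, 11.82 and 11.69 in the control groups, 11.54, 11.30 and 11.43 and 11.58, 11.21 and 11.46 with indomethacin and 11.49, 11.46 and 11.79 and 11.44, 11.46 and 11.46 with RU486. It rose by 0.51 in the controls, where control PeF 3, a dim array, was the lowest, and stood at -0.01 and -0.13 in the drug time courses, where the groups overlapped.

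The peripheral stalk, which holds the head still, rose nearly throughout: all 4 of its measured subunits did so in the controls and with indomethacin and 3 with RU486. Atp5pb rose by 1.15, 0.55 and 0.63, Atp5pd by 0.87, 0.76 and 0.43 and Atp5po by 0.69, 0.83 and 0.82 in the 3 time courses. Of the 6 membrane subunits 1 rose in the controls, 5 with indomethacin and 3 with RU486. Atp5mc3, of the rotating ring, read 12.43, 12.35 and 12.52 and 12.06, 12.11 and 12.17 in the control groups, 12.47, 12.71 and 12.53 and 12.30, 12.45 and 12.23 with indomethacin and 12.45, 12.52 and 12.89 and 12.17, 12.19 and 12.21 with RU486. It was lower at 10:00 without overlap, and fell by 0.32 in the controls and 0.43 with RU486 and stood at -0.24 with indomethacin. On the deposited signals its control difference was 0.87, below the shift of all probe sets. Atp5me rose by 0.74 with indomethacin and 0.67 with RU486 and stood at 0.33 in the controls.

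Of the 10 members that are no subunit, 4 rose in the controls, 2 with indomethacin and 1 with RU486. Cox7a2l, which joins complexes III and IV into supercomplexes, rose by 0.69, 0.49 and 0.84. Among the 6 complex I assembly factors, Ndufaf8 rose by 0.66 and 0.87 in the control and indomethacin time courses, and Ndufaf3 by 1.70 in the controls. Ndufaf3 stood at 1.08 and 1.06 in the drug time courses without a call (limma adjusted p = 0.0796 and 0.075), and all 9 of its later arrays were above all 9 earlier ones. It read 7.17, 6.85 and 4.33 in control PeF, the last on the dim array control PeF 3, where it was not above background, and without that array its control difference was 0.81. The inhibitor Atp5if1, which stops ATP synthase from running backwards, rose by 0.64 in the controls and stood at 0.18 and 0.15 in the drug time courses. Its 2 dimmer probe sets gave -0.22 and -0.40 in the controls without a call, so its probe sets disagree. The pseudogene Cox6c-ps1 stood at 0.71, 0.78 and 0.15 without a call.

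The 3 time courses share no samples and can be set against each other. Across the 83 tested members, which are not independent replicates, the control and indomethacin differences correlated with Pearson's r of 0.76 (Spearman's rho 0.80), the control and RU486 differences with 0.65 (0.71) and the indomethacin and RU486 differences with 0.84 (0.82). Without Cox4i2, which lies far from the rest and is at background in 3 groups, Pearson's r was 0.80, 0.78 and 0.86 in the same order. Across all 18155 probe sets Pearson's r was 0.81, 0.74 and 0.77 and Spearman's rho 0.75, 0.69 and 0.73. All points of 1 time course come from the same 6 arrays. Of the 53 members that rose in the controls 45 also rose with indomethacin and 36 with RU486. The 45 are 84.9% of the 53 and 83.3% of the 54 that rose with indomethacin, and the 36 are 67.9% of the 53 and 83.7% of the 43 that rose with RU486. The matching overlaps over all tested probe sets were not counted, so these shares cannot be read as particular to the members. The 7 that rose in the controls alone were Atp5f1b, Atp5if1, Cox4i1, Cox4i2, Ndufaf3, Ndufb11 and Sdha, and none rose with RU486 alone. Whether a time course differed from that of the controls was tested as the difference of the drug's effects at the 2 times, given below.

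**Figure D2:**
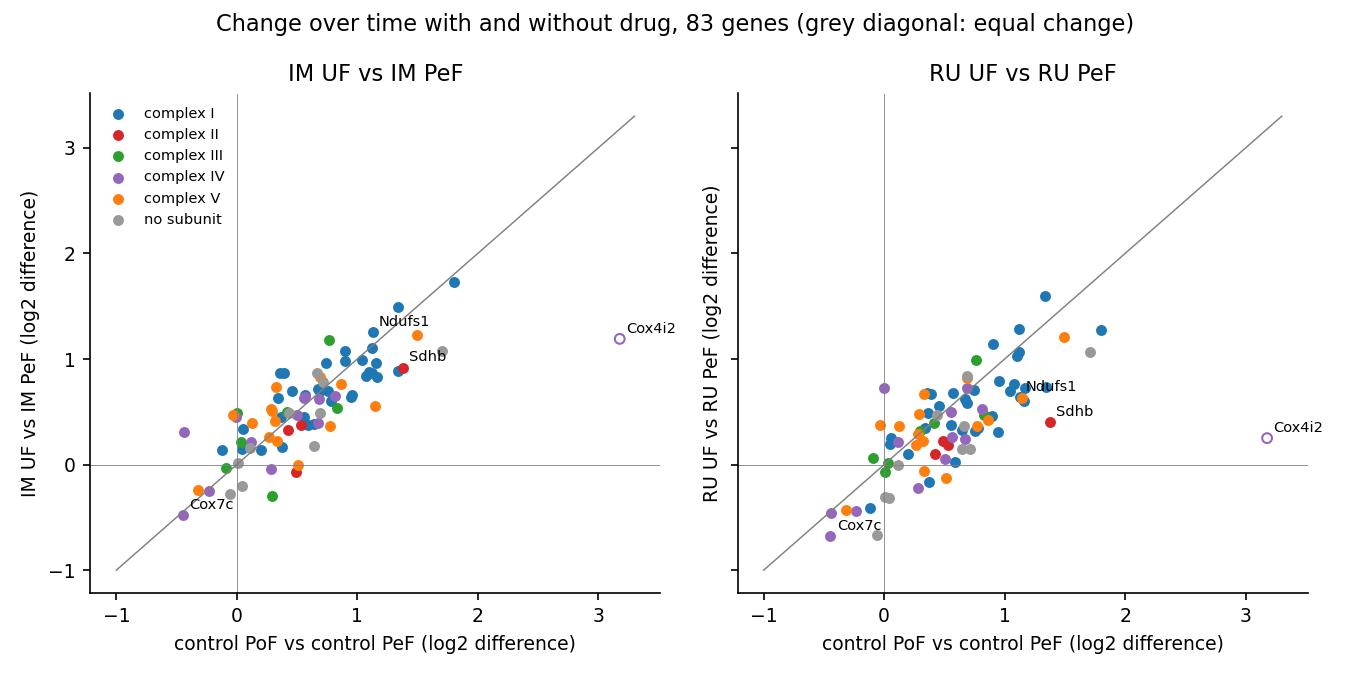
Each point is 1 of the 83 genes, with its log2 difference from control PeF to control PoF on the x axis and its difference in the indomethacin (left) or RU486 (right) time course on the y axis, coloured by complex. The grey diagonal marks equal change, and Sdhb lies below it with RU486 at 0.40. Cox4i2 is drawn open, because groups at background set its place.

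At 22:00 of proestrus indomethacin moved no member past the test. IM PeF against control PeF gave 0 calls among the members and 0% of all tested probe sets by limma. At an unadjusted p under 0.05 there were 19 members, 22.9%, and 11.4% of probe sets, both directions counted, and 16 of the 19 were higher. With arrays weighted by quality 13 members and 12.9% of probe sets were called. The smallest limma adjusted p among members was 0.298, for Atp5pb (0.47).

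RU486 at 22:00 raised 6 members, 7.23% of those tested, where 3.40% of probe sets were higher. Cox4i1 read 10.78, 11.07 and 10.70 in control PeF, 11.11, 11.33 and 11.37 in RU PeF and 11.21, 11.23 and 11.18 in IM PeF. All 3 RU PeF arrays were above all 3 control arrays, a log2 difference of 0.42 ± 0.10 (SE, limma adjusted p = 0.0165). The others were Ndufa8 (0.63), Ndufv1 (0.43), Cox5b (0.42), Ndufa13 (0.40), which is also known as a cell death regulator, and the stalk subunit Atp5pd (0.34), all without overlap. In IM PeF, set against the same control samples, these 6 stood at 0.36, 0.34, 0.37, 0.27, 0.33 and 0.30 in that order. These calls were narrow: without RU PeF replicate 2 or without RU PeF replicate 3 none of the members was called, without RU PeF replicate 1 there was 1 and without control PeF replicate 3 there were 2. On the deposited signals there was no call and with median scaling there were 3.

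At 10:00 of estrus, where IM UF and control PoF also differ in rupture, again no member passed the test. IM UF against control PoF gave 0 members and 0.0330% of probe sets by limma. At an unadjusted p under 0.05 there were 9 members, 10.8%, and 6.97% of probe sets, and with arrays weighted by quality 1 member and 0.942% of probe sets. Cox4i2 had the smallest limma adjusted p, 0.234, at a difference of -1.92, with 2 of 3 IM UF arrays above background, and its 3 IM UF arrays lay below its 3 control PoF arrays.

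In RU UF 1 member was higher and 3 were lower than in control PoF, where 4.22% of probe sets were higher and 4.47% lower. RU UF were unruptured and control PoF ruptured, so drug and rupture cannot be told apart here. By direction 1.2% of the 83 members were higher and 3.61% lower, each below the share of all probe sets, a difference that was not tested. One of the 3 lowered, Cox4i2, was at background on every RU UF array and has only the bound given above. Without it 3 of 82 members, 3.66%, were called, 1 higher and 2 lower. The smooth muscle and pericyte markers gave no call in this comparison, with a median of -0.65, and their part was not tested. Sdhb was lower, with a difference of -0.93 ± 0.15 (SE), 1.9-fold, a limma adjusted p of 0.000853, and without overlap. The other complex II subunits stood at -0.22 for Sdha, -0.13 for Sdhc and -0.28 for Sdhd and did not pass. Cox7b, a small subunit of complex IV, read 11.82, 11.86 and 11.86 in control PoF and 11.37, 11.50 and 11.52 in RU UF. The groups did not overlap, and the difference was -0.38 (limma adjusted p = 0.0421). Ndufb2 read 10.51, 10.42 and 10.46 in control PoF and 10.87, 10.87 and 10.84 in RU UF, higher on every array, with a difference of 0.40 (limma adjusted p = 0.0496). Leaving out any 1 array of either group left 2 calls, and on the deposited signals Ndufb2 turned to -0.30 where all probe sets shifted by -0.67.

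**Figure D3:**
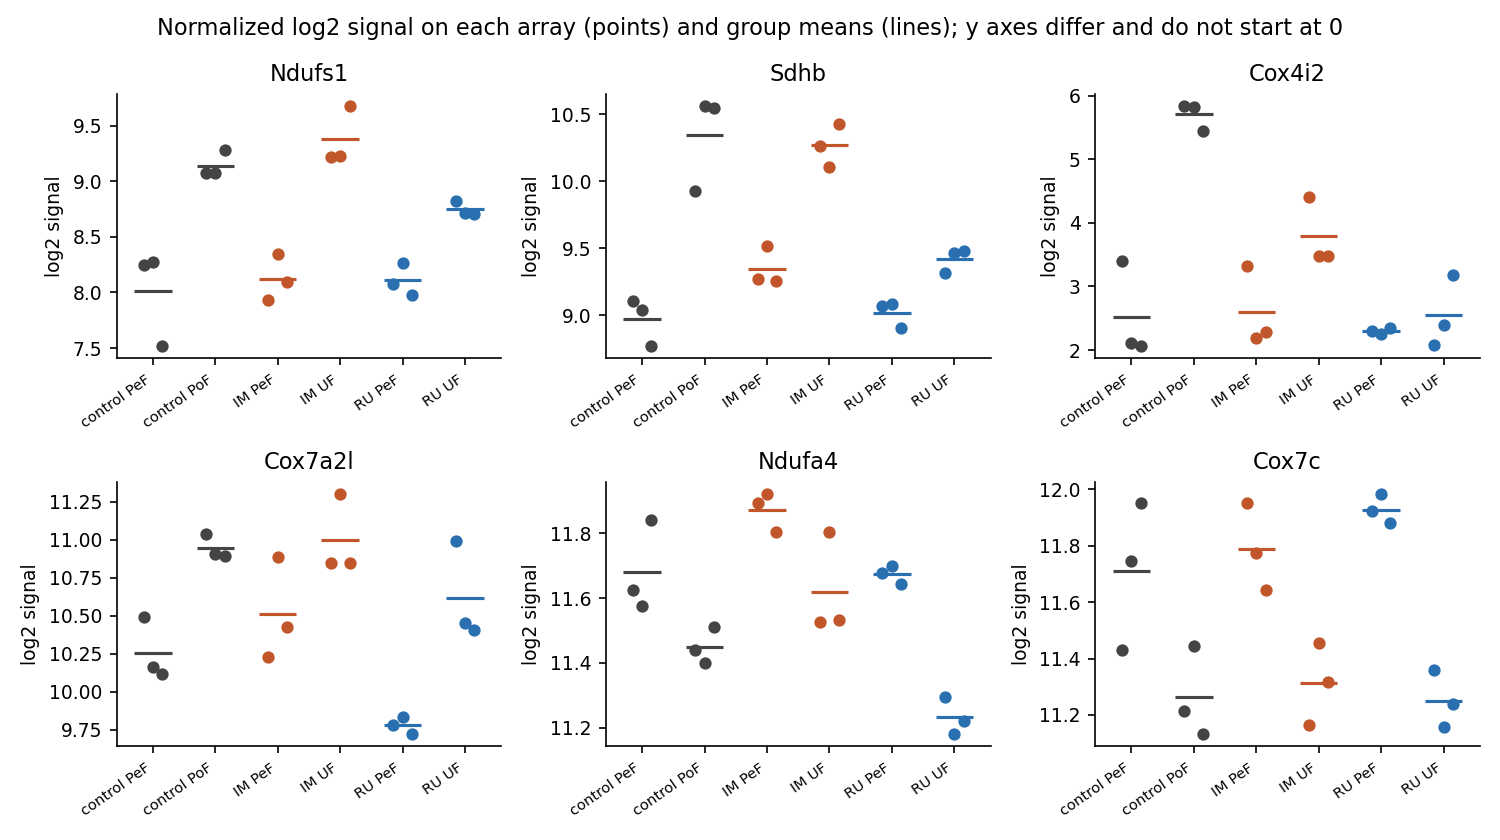
Points are the normalized log2 signals of 6 genes on each of the 18 arrays and lines are group means, with a separate y axis for each gene. The RU UF arrays lie below those of control PoF and IM UF for Sdhb and Ndufs1, Cox4i2 is highest in control PoF, and the RU PeF arrays are the lowest for Cox7a2l.

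The effect of RU486 was set against itself at the 2 times, which is the same as asking whether its time course differed from that of the controls. At 10:00 this effect cannot be told apart from the difference in rupture. The fit called 2 of 83 members, 2.41%, Sdhb and Cox4i2, where it called 4.02% of probe sets. Cox4i2 was at background in 3 of the 4 groups of this test, so it gives no measured difference, and without it 1 of 82 members, 1.22%, was called. Sdhb differed by -0.98 ± 0.22 (SE, limma adjusted p = 0.0176), from 0.05 at 22:00 to -0.93 at 10:00. Over all 83 members the median of this difference was -0.18, and over all tested probe sets -0.07. Sdhb was not called without control PoF replicate 2 or replicate 3, at -0.87 for each (limma adjusted p = 0.0598 and 0.0544), with median scaling, at -1.43, or on the deposited signals, at -2.61. All probe sets stood at a median of -0.39 with median scaling and -1.45 on the deposited signals. For indomethacin 0 members and 0% of probe sets passed this test by limma. At an unadjusted p under 0.05 there were 9 members, 10.8%, and 9.04% of probe sets, and with arrays weighted by quality 5 members and 3.02% of probe sets.

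The drugs were also set against each other. At 22:00 Cox7a2l was the 1 member that differed, lower with RU486, where 3.25% of probe sets were lower. It read 10.49, 10.16 and 10.12 in control PeF, 10.23, 10.89 and 10.43 in IM PeF and 9.78, 9.83 and 9.72 in RU PeF, and the RU PeF arrays were below all of the others. The difference between the drugs was -0.73 ± 0.18 (SE, limma adjusted p = 0.0187). It was not called without IM PeF replicate 2, at -0.55, or without any 1 of the RU PeF arrays, nor on the deposited signals or with median scaling. At 10:00 of estrus, where both groups were unruptured, 4 members were lower with RU486, 4.82% of those tested, where 3.45% of probe sets were. Sdhb differed from IM UF by -0.85 (limma adjusted p = 0.00258) and Ndufs1 by -0.63 (limma adjusted p = 0.0464), both without overlap. Ndufa4 differed by -0.39 (limma adjusted p = 0.0171). Atp5mg, of the membrane part of complex V, read 11.40 on IM UF 1, 11.51 on IM UF 3 and 12 on IM UF 2, against 11.15, 11.03 and 10.85 in RU UF, lower on every array, a difference of -0.62 (limma adjusted p = 0.0418). IM UF 2 is one of the dim arrays. At an unadjusted p under 0.05 there were 20 members, 24.1%, all of them lower with RU486. Of all probe sets 20.3% differed, but that share counts both directions and is not a like measure. The median over the 83 was -0.12 where that of all probe sets was -0.0027. Without IM UF replicate 2 only 1 of the 4 calls was left, as without RU UF replicate 2 or 3, and without IM UF replicate 3 or RU UF replicate 1 there were 2. No member was called on the deposited signals or with median scaling.

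Genes around the respiratory chain were read as lists, given by counts and not tested as lists. Of 10381 tested genes 24.4%, 19.4% and 21.3% rose and 19.7%, 18.4% and 21.4% fell in the control, indomethacin and RU486 time courses. Of 14 other carriers and transporters of the chain, 11 rose and 1 fell in the controls, 8 rose and 1 fell with indomethacin and 7 rose and 2 fell with RU486. Slc25a4, which exchanges ADP for ATP across the inner membrane, rose by 1.34, 0.80 and 0.49, and the electron transfer flavoprotein gene Etfb by 1.24, 0.92 and 0.97, while Gpd2, which feeds electrons from glycerol phosphate, fell by 1.15, 0.92 and 0.99. Of 20 genes of the citrate cycle and pyruvate dehydrogenase 14, 6 and 8 rose and 1, 2 and 1 fell. Idh2 rose by 1.45, 1.56 and 2.28 on the log2 scale, Suclg1 rose by 1.19, 0.74 and 0.83, and Sucla2, the ATP-forming partner of the same enzyme, fell by 0.68, 0.93 and 0.70.

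Of 16 glycolysis genes 13, 10 and 8 rose and 0, 3 and 3 fell in the same order, with Aldoc at 3.67, 3.02 and 3.52. Of 73 mitochondrial ribosomal protein genes 34, 23 and 18 rose and 1, 0 and 3 fell. Of 43 assembly factors, which include the 6 that are members, 15, 14 and 13 rose and 2, 4 and 3 fell, and of 52 cytosolic ribosomal protein genes 16, 9 and 10 rose and 3, 2 and 3 fell. Regulators of mitochondrial biogenesis did not rise as a list: 4 of 15 rose and 4 fell in the controls, 2 rose and 3 fell with indomethacin, and 2 rose and 5 fell with RU486. The transcription factor gene Nrf1 fell by 1.23, 1.04 and 1.15 and Ppargc1b, a coactivator, rose by 2.15, 2.11 and 1.87. Gabpa, the DNA-binding part of GABP, stood at 0.29, 0.39 and 0.49 with no call. In RU UF against control PoF 5.46% of all genes were lower and 4.53% higher. Of the lists, 5 of 16 glycolysis genes, 3 of 20 of the citrate cycle list and 7 of 52 cytosolic ribosomal protein genes were lower and none was higher. Of 73 mitochondrial ribosomal protein genes 2 were lower, 2.74%, below the share of all genes, and none was higher. Of 43 assembly factors 1 was higher and none lower. None of the 14 other carriers and transporters or of the 15 biogenesis regulators was called.

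**Figure D4:**
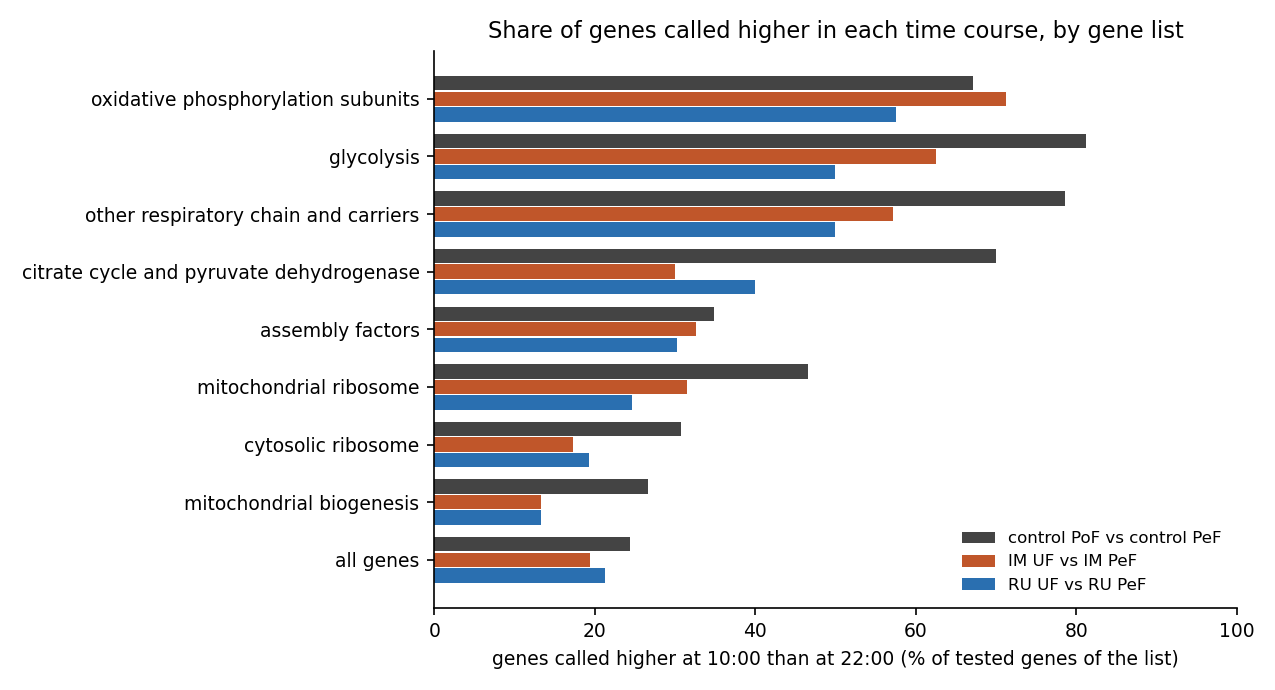
Bars give the percentage of tested genes of each list that passed the test as higher at 10:00 than at 22:00, in grey for the controls, orange for indomethacin and blue for RU486. The subunits stand at 67.1%, 71.2% and 57.5%, where all genes stand at 24.4%, 19.4% and 21.3%, and in the controls the citrate cycle list, the other carriers and glycolysis stand above the subunits.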

How the data were processed

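Total RNA of 18 follicle samples was labelled with biotin and hybridized to 1 Affymetrix rat array each. The deposited values are intensity, that is linear probe set signals of 1 or more. The submitters' processing notes list MAS5. Its settings and scaling are not given in the sources used. Array medians showed that the deposited signals share no common scale, so they were quantile-normalized after 57 of 31099 probe sets, all controls, were left out. The pseudocount of 2.79 is the 20th percentile of all deposited values. The test took the 18155 probe sets that exceeded the median of their array on 3 or more of 18 arrays. Background on an array was the highest of 27 unspiked control probe sets, and the number of arrays limits the precision.

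Groups were compared by limma 3.58.1 (R 4.3.3), fitting 1 mean for each, a variance trend, 12 residual degrees of freedom (prior 5.76) and Benjamini-Hochberg adjustment at 0.05 within a comparison. The test was tested on simulated data. Plots used matplotlib 3.10.9 (Python 3.11.15).

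The members, the gene lists and the naming rule were chosen with earlier results of these data known. The rule names core subunits and subunits with alternative forms, and per comparison up to 8 called members with the largest change in each direction whose groups did not overlap. It also names those with the widest range of group means in a complex. Its extremes of mean signal were not used, since signals of different probe sets are not comparable. Replicate numbers recur between groups, but of 45 same-numbered pairs 1 had a correlation of deviations over 0.1 (range -0.30 to 0.12), so samples were not paired. Alternatives were other scalings, pseudocounts and filters, fits of the compared groups alone, quality weights, a replicate block, and fits without single arrays or the 3 dimmest.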

Additional observations from a re-analysis of the deposited data

Results flagged for a closer look

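The effect of RU486 differed between 22:00 and 10:00 for Sdhb by the test of that difference. At 10:00 the effect cannot be told apart from the difference in rupture. The log2 difference of the effects was -0.98 (limma adjusted p = 0.0176), with the 3 RU UF arrays between the 3 RU PeF arrays and the 3 control PoF arrays.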

How the results depend on the processing

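The 83 differences of single members named by the rule gave 1340 values under the alternatives: 1091 kept their direction and call, 247 kept their direction and lost the call, and 2 turned, both on the deposited signals (Atp5mc3 in the control time course to 0.87 and Ndufb2 in RU UF against control PoF to -0.30). Of the 1340 values, 83 came from choosing probe sets by deposited mean. That choice changed no member's probe set, so these 83 could not move. With median scaling 29 of 83 lost the call, and on the deposited signals 56 of 83 did and 2 turned. The counts of members called moved as well. Apart from those with quality weights, they are given without the share of all probe sets called under the same alternative. Leaving out 1 array gave 45 to 53 calls in the control time course, 42 to 56 with indomethacin and 36 to 41 with RU486. It gave 0 for IM PeF against control PeF, 0 to 8 for RU PeF against control PeF, 0 for IM UF against control PoF and 2 for RU UF against control PoF. It gave 0 to 3 for RU PeF against IM PeF, 1 to 3 for RU UF against IM UF, 0 for the indomethacin effect between times and 0 to 4 for the RU486 effect. On the deposited signals there were 0 calls in each drug time course, for RU PeF against control PeF and in both comparisons between drugs, and 1 each for RU UF against control PoF and the RU486 effect between times. With median scaling there were 16 in the RU486 time course, 3 for RU PeF and 2 for RU UF against their controls, 0 in both comparisons between drugs and 1 for the RU486 effect. Without a filter there were 2 each for RU PeF against control PeF, RU UF against control PoF and RU UF against IM UF. With only the groups compared in the fit there were 0 for RU PeF and 9 for RU UF against their controls. With quality weights there were 13 for IM PeF, 14 for RU PeF, 1 for IM UF and 11 for RU UF against their controls, 20 and 13 between drugs at 22:00 and 10:00, and 5 and 13 for the indomethacin and RU486 effects between times. The shares of all probe sets called with quality weights were 12.9%, 19.2%, 0.942% and 20.3% against controls, 21.3% and 14.6% between drugs, and 3.02% and 13.5% for the effects between times. With the pseudocount at the median of all values there was 1 for IM UF against control PoF. Without the 3 dimmest arrays there were 11 for RU UF against control PoF, 3 and 9 between drugs, and 5 for the RU486 effect. With the replicate block the 3 time courses gave 53, 52 and 42 calls and RU UF against control PoF 2. The number of calls moved by less than 1.5 times in its other comparisons, and the numbers are not known to pair samples. The cause of these moves was not tested. Members not above background have only a bound.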
